A study of Homo sapiens with 4 samples.

Results

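The genes of glycolysis, gluconeogenesis and glycogen metabolism were followed in Huh7, a human hepatocellular carcinoma cell line, with and without overexpression of the receptor-like kinase STYK1. The set was a fixed list of 44 gene symbols, looked up in the annotation of the array, with the probe set of the highest mean over the 4 arrays standing for each gene. It found 42 of the 44 among 22395 named genes, each with 1 probe set. The lactate transporters SLC16A1 and SLC16A3 were without a named probe set and were not analysed here. The STYK1 group held 2 arrays of Huh7 cells transfected with pcFLAG-hSTYK1, a plasmid that carries human STYK1, and the control group held 2 arrays of Huh7 cells transfected with pcFLAG. Both groups thus share the cell line, a transfection and the plasmid backbone. The share of cells that took up the plasmid, and whether the replicates were separate cultures, are not stated in the labels; the p-values therefore describe the spread of these arrays, which may be technical. In RNA of a whole culture, a change in few cells and a smaller change in all cells cannot be told apart.

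Glycolysis splits glucose into pyruvate, which a growing cell largely turns into lactate, while the liver can run most of the same steps backwards to release glucose and can store glucose as glycogen. Several steps have a liver isoform and another isoform that dominates in growing or other tissues, and liver tumours often shift from the former to the latter. The liver forms are known to be controlled by glucose itself through the factor ChREBP, encoded by MLXIPL, and by insulin through FOXO1. The hypoxia factor HIF1A is known to drive many genes of glycolysis and the kinases that keep pyruvate out of mitochondria.

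Each array gave a log2 signal for 53617 probe sets, with array medians of 0.615 to 0.629 and Pearson correlations between arrays of 0.985 to 0.987. A background floor was set at the 95th percentile of 355 olfactory receptor genes, which liver cells are not expected to express, and lay at 0.75 to 0.81 on the 4 arrays, with a mean of 0.77. The liver label fits the markers: 14 of 14 hepatocyte markers and 6 of 6 markers of hepatoblasts and liver cancer lay above the floor, the former at 3.22 to 10.5, while 0 of 4 endothelial and 1 of 7 fibroblast markers did. Of 7 immune markers 3 lay above it, CD14, CD68 and LYZ, and the pan-leukocyte gene PTPRC did not. STYK1 read 0.26 and 0.61 with pcFLAG, under the floor, and 7.40 and 7.86 in the STYK1 arrays, at least 117-fold higher (limma, adjusted p = 0.0373). It was the sole probe set of 53617 to pass, which is 0.00187%, and it did not pass when any 1 array was left out or with the replicate number as a block.

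Of the 42 glucose metabolism genes, 0 passed the adjusted threshold of 0.05 and 0 had an unadjusted p under 0.05 (limma). Over all probe sets 4.64% had an unadjusted p under 0.05, and over the 22395 named genes 3.72%, 1.79% higher and 1.93% lower. Single arrays weighed on some differences. Without STYK1 replicate 2 those of GCKR, PKLR, PDK1 and PCK1 were 0.54, −0.41, 0.47 and 0.40. With all 4 arrays they were 0.30, −0.11, 0.31 and 0.22. The SLC2A3 difference was −0.35 without control replicate 2 and −0.21 with all 4 arrays. The 42 differences ran from −0.21 to 0.31 on the log2 scale, with a median of 0.023, where the median of all named genes was 0.0022. Higher means in the STYK1 arrays were seen for 27 genes and lower ones for 15, against 50.8% higher among all named genes. The groups did not overlap for 12 of the 42, or 28.6%, against 32.9% of all named genes; the STYK1 arrays were higher in 6 (16.7% of all) and lower in 6 (16.2%). Among the 27 above the floor it was 6, where 33.0% of all genes above the floor lay apart. The difference was larger than both gaps between replicates for 7 of the 42, where 21.7% of all named genes met that mark.

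The intervals set how large a shift these arrays leave room for. All 42 intervals of 95% lay inside a 2-fold difference either way, 27 of them of genes above the floor. Of the 11014 named genes above the floor 97.7% did so. Inside 1.5-fold lay 36 of the 42, genes not above the floor included. The widest reached 1.74-fold higher, for GCKR, and 1.61-fold lower, for PKLR. A gene not above the floor, or little above it, can hold a narrow interval because background hardly varies. For those genes the interval bounds the signal and not the transcript.

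**Figure D1:**
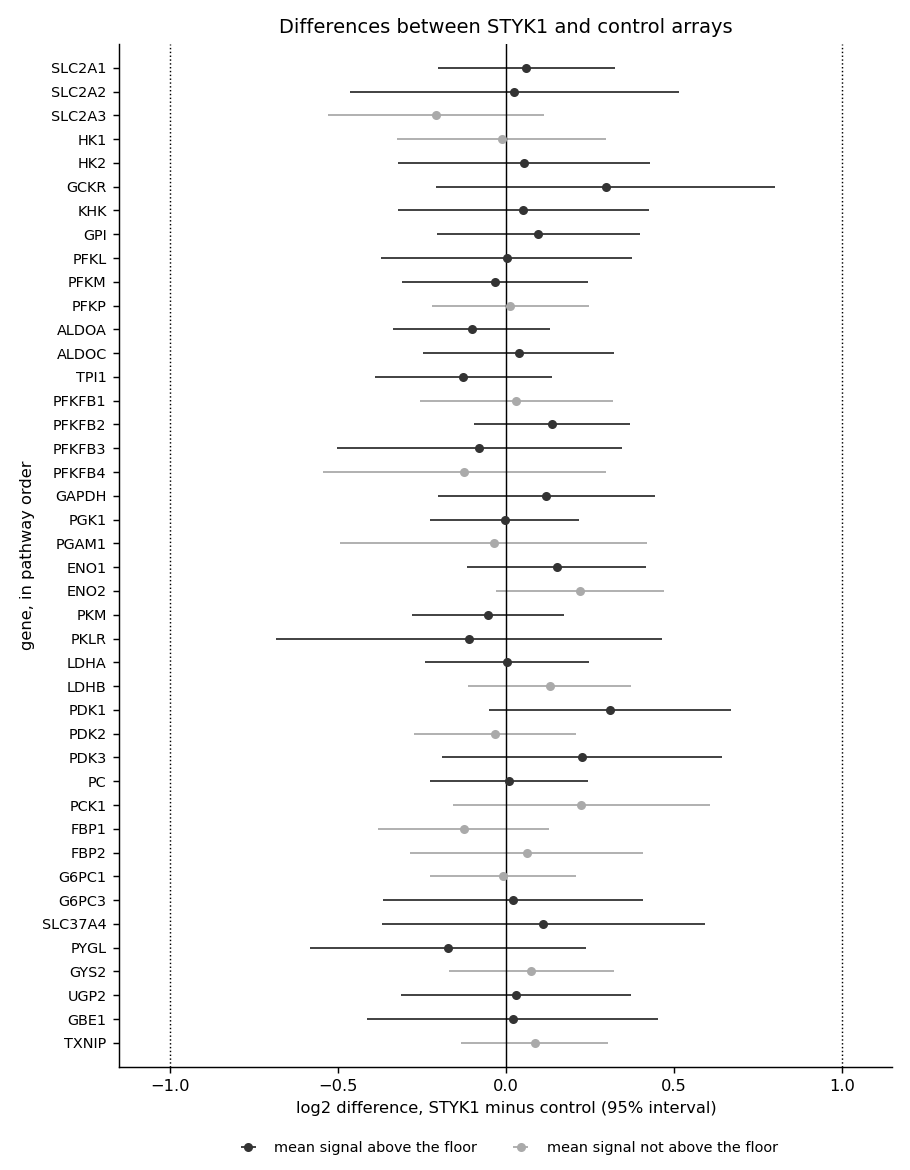
Log2 difference, STYK1 minus control, for the 42 measured genes in pathway order (points, limma estimate; bars, 95% interval; black, mean signal above the floor; grey, not above it; dotted lines, 2-fold). All bars cross 0 and stay inside the 2-fold lines, with PDK1 at 0.31 and GCKR at 0.30 farthest to the right.

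The upstream sequences of 5 genes are shown for the controls they are known for: PKLR and TXNIP for glucose, PDK1 and PDK3 for hypoxia, and G6PC1 for insulin. Whether these controls acted in these cells was not tested. They are RefSeq's (GRCh38.p14), each the 250 bases before a start site, 5′ to 3′ on the gene's strand; of several starts, the one with most of the letters marked is shown. Capitals in PKLR and TXNIP mark the letters CACGNG, 5 bases of any kind and CNCGNG, a pattern of paired boxes like that of carbohydrate response elements. Capitals in PDK1 and PDK3 mark ACGTG, the core that HIF binds, on either strand. In G6PC1 capitals mark TGTTTTT, a FOXO-type element, and the TATA box TATAAA.
PKLR, chr1:155300953-155301202, minus strand: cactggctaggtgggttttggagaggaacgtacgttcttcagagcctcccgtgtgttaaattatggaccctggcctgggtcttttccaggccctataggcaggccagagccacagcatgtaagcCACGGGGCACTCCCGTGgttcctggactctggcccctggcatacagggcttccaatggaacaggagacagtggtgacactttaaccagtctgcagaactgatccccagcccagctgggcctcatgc
TXNIP, chr1:145996580-145996829, minus strand: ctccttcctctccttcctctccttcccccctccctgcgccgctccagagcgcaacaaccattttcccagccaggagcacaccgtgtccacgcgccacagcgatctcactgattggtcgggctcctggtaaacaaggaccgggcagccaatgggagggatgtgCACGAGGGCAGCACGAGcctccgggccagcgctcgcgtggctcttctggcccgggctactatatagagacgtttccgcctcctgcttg
PDK1, chr2:172555840-172556089, plus strand: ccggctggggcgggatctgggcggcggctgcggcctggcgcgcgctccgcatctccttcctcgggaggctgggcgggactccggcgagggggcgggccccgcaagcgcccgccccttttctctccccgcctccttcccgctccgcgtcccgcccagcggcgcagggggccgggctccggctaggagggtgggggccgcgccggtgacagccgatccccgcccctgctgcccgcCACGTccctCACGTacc
PDK3, chrX:24465036-24465285, plus strand: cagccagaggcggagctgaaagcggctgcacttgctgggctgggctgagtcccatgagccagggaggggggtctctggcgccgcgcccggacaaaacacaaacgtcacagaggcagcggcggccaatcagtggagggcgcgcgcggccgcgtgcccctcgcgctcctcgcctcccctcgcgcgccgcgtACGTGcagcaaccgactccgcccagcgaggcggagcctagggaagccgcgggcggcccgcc
G6PC1, chr17:42900549-42900798, plus strand: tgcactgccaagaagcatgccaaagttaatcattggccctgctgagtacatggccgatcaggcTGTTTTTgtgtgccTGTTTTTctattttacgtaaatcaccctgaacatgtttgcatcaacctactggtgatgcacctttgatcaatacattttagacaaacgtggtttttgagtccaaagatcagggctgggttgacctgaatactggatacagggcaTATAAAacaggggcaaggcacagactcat

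RefSeq listed 75 start sites for 38 of the 44 genes, and neighbouring windows of a gene can overlap. The paired pattern was searched on both strands. It occurred in 2.67% of the 75 windows, in PKLR and TXNIP, and in 0.424% of 35116 windows of all genes. Within its boxes it allows any base only where the PKLR and TXNIP sites differ, so its match in these genes is no result. ACGTG lay in 37.3% of the 75 windows, in 23 of the 38 genes, and in 18.5% of all windows; where it is preceded by C it is also part of the E-box CACGTG, which lay in 14.7% of the 75 windows and 6.34% of all. TGTTTTT lay in 5.33% of the 75 windows, in 4 of the 38 genes, and in 6.29% of all windows. TATAAA lay in 9.33% of the 75 windows, in 7 genes, and in 10.7% of all windows. These are matches of letters, not measured sites.

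Of the 42 genes, 27 had a mean signal above the floor, or 64.3%, where 49.2% of all named genes did. The other 15 were SLC2A3, HK1, PFKP, PFKFB1, PFKFB4, PGAM1, ENO2, LDHB, PDK2, PCK1, FBP1, FBP2, G6PC1, GYS2 and TXNIP, of which 10 were under the floor on all 4 arrays. Signals of different genes come from different probes and are therefore set against the floor only and not against each other. A signal under the floor does not show that the transcript is absent.

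**Figure D2:**
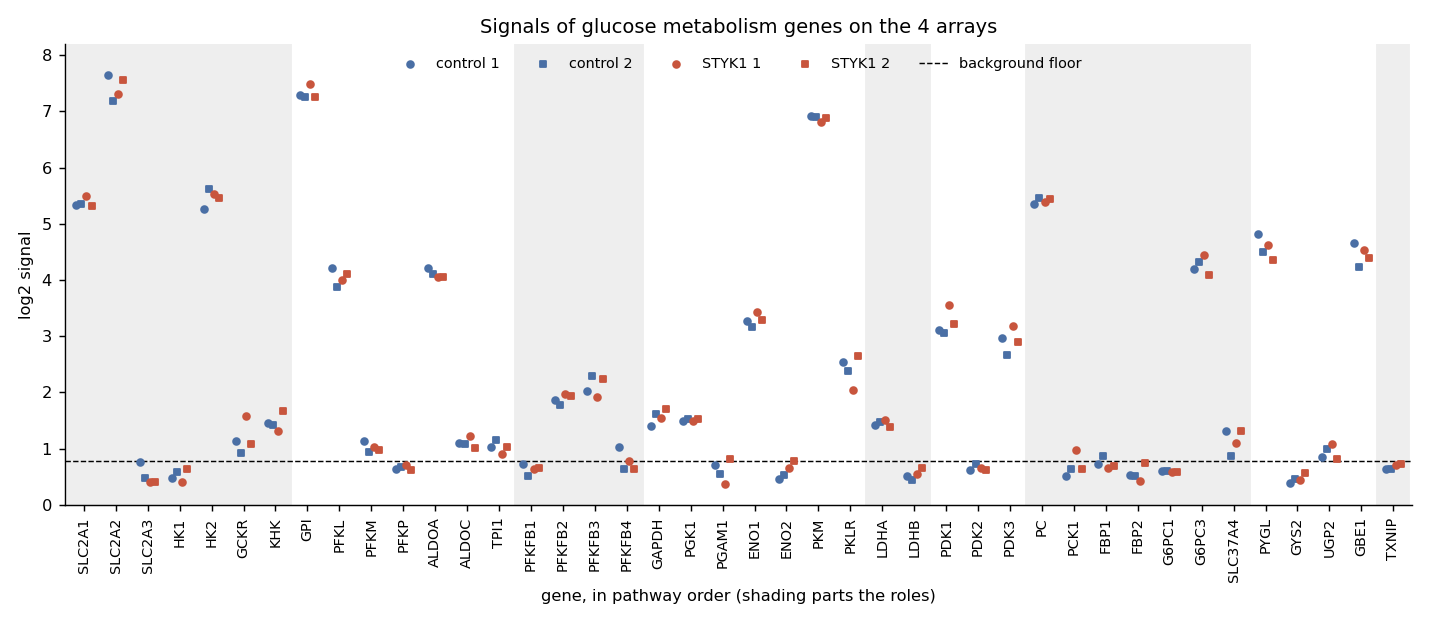
Log2 signal of each gene on the 4 arrays, in pathway order (blue, control; red, STYK1; circles, replicate 1; squares, replicate 2; dashed line, mean floor of 0.77; shading parts the roles). The groups overlap for all but 12 of the 42 genes, and 15 genes have a mean that is not above the dashed line.

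Uptake and trapping of sugar showed a liver transporter together with the transporter of growing cells. SLC2A2, the liver glucose transporter GLUT2, read 7.64 and 7.19 with pcFLAG and 7.32 and 7.56 with STYK1. SLC2A1, the transporter GLUT1 of growing cells, read 5.33 and 5.35 with pcFLAG and 5.49 and 5.31 with STYK1. The groups overlapped for both, with differences of 0.025 (standard error 0.19) and 0.061 (0.10), so neither difference exceeded its standard error. SLC2A3, the high-affinity transporter GLUT3, stayed at the floor, with 1 of 4 arrays just above it. HK2, the hexokinase that many tumours switch on, read 5.26 and 5.62 with pcFLAG and 5.52 and 5.47 with STYK1, whereas HK1, the housekeeping hexokinase, was under the floor on all 4. GCKR, a regulator of sugar phosphorylation in the liver, read 1.13 and 0.93 with pcFLAG and 1.57 and 1.08 with STYK1. Its groups overlapped, and the difference of 0.30 (95% interval −0.21 to 0.80) was 0.051 without STYK1 replicate 1. KHK, which starts fructose breakdown, differed by 0.052.

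The 7 genes of upper glycolysis differed by −0.13 to 0.096 between the groups, with a median of 0.0025. GPI, which turns glucose 6-phosphate into fructose 6-phosphate, read 7.30 and 7.25 with pcFLAG and 7.49 and 7.25 with STYK1. PFKL, the liver subunit of phosphofructokinase, the committing step, read 4.21 and 3.87 against 3.99 and 4.10, a difference of 0.0025 with a 95% interval of −0.37 to 0.38. Its platelet counterpart PFKP was under the floor on all 4 arrays, at 0.62 to 0.71, and the muscle subunit PFKM was a little above it on all 4. ALDOA, the aldolase of muscle and growing cells, read 4.20 and 4.11 with pcFLAG and 4.05 on each STYK1 array. These groups did not overlap, and the difference of −0.10 (standard error 0.089) was not distinguished from 0 (limma, unadjusted p = 0.311, adjusted p = 0.983). It was −0.052 without control replicate 1. TPI1, which interconverts the 3-carbon sugars that aldolase makes, differed by −0.13, also without overlap, near the floor at 0.91 to 1.16. ALDOC differed by 0.039.

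The PFKFB enzymes make or remove fructose 2,6-bisphosphate, the signal that speeds phosphofructokinase and slows gluconeogenesis. PFKFB2 read 1.86 and 1.77 with pcFLAG and 1.96 and 1.94 with STYK1, without overlap, a difference of 0.14 (standard error 0.089; limma, adjusted p = 0.98). PFKFB3, the form of growing and hypoxic cells, read 2.02 and 2.29 against 1.91 and 2.24, with overlap. PFKFB1, the liver form, was under the floor on all 4 arrays, and PFKFB4 lay above it on 2. The groups lay apart for 1 of these 4 genes, PFKFB2, and for 32.9% of all named genes, so this is no result about the isoforms.

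Lower glycolysis ends in the pyruvate kinases, which differ between liver and growing cells. PKM, the pyruvate kinase of growing cells, read 6.91 and 6.89 with pcFLAG and 6.81 and 6.89 with STYK1, a difference of −0.053 without overlap, with a 95% interval of −0.28 to 0.17. PKLR, the liver pyruvate kinase, read 2.53 and 2.38 with pcFLAG, and its STYK1 replicates 2.04 and 2.65. Its STYK1 arrays thus lay on either side of the controls, and the difference of −0.11 turned to 0.19 without STYK1 replicate 1. ENO1, the main enolase, read 3.26 and 3.16 against 3.43 and 3.29, a difference of 0.15 (standard error 0.10) without overlap, 0.080 without STYK1 replicate 1 and 0.098 without control replicate 2. ENO2, the neuronal enolase, differed by 0.22 but was under the floor on all 4 arrays, at 0.46 to 0.78. GAPDH read 1.39 to 1.71 over the 4 arrays, PGK1 1.49 to 1.52 and PGAM1 0.37 to 0.81.

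Those 3 genes run single steps that every cell uses, and their signals here lay near background or little above it. RefSeq names 65 pseudogenes after GAPDH, 13 after PGAM1, 6 after LDHA, 5 after PKM, 4 after TPI1, 4 after ENO1 and 2 after PGK1. Above the floor lay 3 of the 4 genes with 5 or more pseudogenes of their name (GAPDH, LDHA and PKM, not PGAM1), 6 of the 9 with 1 to 4, and 18 of the 29 with 0. The part of pseudogenes in these signals was not tested.

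The largest difference among the 42 genes, 0.31 for PDK1, lay at the gate of pyruvate into mitochondria. LDHA, which turns pyruvate into lactate, read 1.42 and 1.46 with pcFLAG and 1.50 and 1.38 with STYK1, and LDHB, the form that favours the reverse, was under the floor on all 4. PDK1 and PDK3 are kinases that shut pyruvate dehydrogenase and so keep pyruvate in the cytosol. PDK1 read 3.11 and 3.05 with pcFLAG and 3.56 and 3.22 with STYK1, group means of 3.08 ± 0.042 and 3.39 ± 0.23 (SD, n = 2). The groups did not overlap, and STYK1 replicate 1 lay highest. The difference was 0.31 (standard error 0.14, 95% interval −0.051 to 0.67; limma, unadjusted p = 0.0778, adjusted p = 0.98), and it was 0.14 without STYK1 replicate 1 and 0.47 without STYK1 replicate 2. PDK1 was the single gene of the 42 whose groups did not overlap, with a difference of at least 0.25 and a group above the floor, a mark that 5.5% of all named genes met. PDK3 read 2.97 and 2.66 against 3.18 and 2.90, with overlap and a difference of 0.23 (standard error 0.16), 0.088 without STYK1 replicate 1 and 0.070 without control replicate 2. PDK2 was under the floor on all 4 arrays.

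Beside PDK1, HIF1A read 7.64 and 7.71 with pcFLAG and 7.83 and 7.78 with STYK1, a difference of 0.12 (standard error 0.088) without overlap and past no threshold (limma, adjusted p = 0.98). The 13 measured hypoxia targets outside glycolysis had a median difference of −0.0005, with 6 higher and 7 lower. Their mean deviation from each gene's mean was 0.077 in STYK1 replicate 1, the array where PDK1 lay highest, −0.082 in STYK1 replicate 2, and 0.0045 and 0.0013 with pcFLAG. ATF4 target genes, which respond to amino acid shortage, deviated by 0.35 in STYK1 replicate 1 and −0.25 in STYK1 replicate 2, and genes of DNA replication by −0.29 and 0.10. What these shifts contribute to the PDK1 value was not tested.

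Of the 7 gluconeogenesis genes of the list 3 had a mean signal above the floor. PC, which makes oxaloacetate from pyruvate, read 5.36 and 5.45 with pcFLAG and 5.39 and 5.44 with STYK1, a difference of 0.0093 with a 95% interval of −0.23 to 0.25. G6PC3, the glucose 6-phosphatase found in most tissues, read 4.19 and 4.31 against 4.45 and 4.10, with a difference of 0.021. SLC37A4, which carries glucose 6-phosphate into the endoplasmic reticulum, was above the floor on all 4 arrays at 0.87 to 1.32. G6PC1, the liver glucose 6-phosphatase, was under the floor on all 4 at 0.59 to 0.60, as was FBP2, the muscle fructose 1,6-bisphosphatase, at 0.42 to 0.74. PCK1, the cytosolic enzyme that commits oxaloacetate to glucose, and FBP1, the liver fructose 1,6-bisphosphatase, each lay over the floor on 1 array. PCK1 read 0.52 and 0.64 with pcFLAG and 0.98 and 0.63 with STYK1, and its difference of 0.22 was 0.051 without STYK1 replicate 1. FBP1 read 0.72 and 0.87 with pcFLAG and 0.65 and 0.68 with STYK1, and no fold is given since neither group lay clearly above background. PCK2, the mitochondrial counterpart of PCK1 and a known ATF4 target, read 4.03 and 4.51 with pcFLAG and 4.85 and 4.16 with STYK1. Its order over the arrays was that of the ATF4 target genes, whose mean deviations were −0.22 and 0.12 with pcFLAG and 0.35 and −0.25 in the STYK1 arrays, except that STYK1 replicate 2 lay above control replicate 1. The PCK2 difference of 0.24 ran from −0.10 to 0.58 as single arrays were left out. What the shifts of the ATF4 target genes contribute to the PCK2 values was not tested.

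The groups overlapped for each of the 4 glycogen genes of the list. PYGL, the liver phosphorylase that frees glucose from glycogen, read 4.82 and 4.50 with pcFLAG and 4.61 and 4.36 with STYK1, a difference of −0.17 (standard error 0.16). It was −0.012 without control replicate 1, −0.046 without STYK1 replicate 2, −0.33 without control replicate 2 and −0.30 without STYK1 replicate 1. GBE1, the branching enzyme, read 4.65 and 4.24 against 4.53 and 4.39. UGP2, which makes the UDP-glucose that glycogen synthase uses, lay just above the floor at 0.81 to 1.08. GYS2, the liver glycogen synthase, was under the floor on all 4 arrays at 0.39 to 0.56, whereas GYS1, the synthase of muscle and other tissues, read 2.14 and 2.05 with pcFLAG and 2.27 and 2.40 with STYK1. GYS1 is no member of the 44; its groups did not overlap, with a difference of 0.24 (standard error 0.097; limma, unadjusted p = 0.0574, adjusted p = 0.98).

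TXNIP, a brake on glucose uptake that ChREBP and its relative MondoA are known to induce, was under the floor on every array, at 0.63 and 0.63 with pcFLAG and 0.71 and 0.73 with STYK1. ARRDC4, its close relative and also such a target, was under the floor on all 4 as well. PKLR, the other gene with the paired letters shown above, lay above the floor on all 4 arrays, as did MLXIPL, which read 3.67 and 3.51 with pcFLAG and 3.65 and 3.43 with STYK1. PKLR and the factor's gene were thus above background and TXNIP was not, in both groups.

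Liver isoforms and isoforms of growing cells were then set side by side. Of 13 liver-type members 8 lay above the floor, and of 14 measured members typical of growing cells 9 did. The median difference was 0.025 for the liver-type genes, 9 higher and 4 lower, and 0.0088 for the growing-cell genes, 8 higher and 6 lower, where all named genes had 0.0022. The groups did not overlap for 2 of the 13 liver-type genes, FBP1 and G6PC1, both lower and not above the floor. They did not overlap for 6 of the 14 growing-cell genes, 3 higher and 3 lower, of which SLC2A3 and ENO2 were not above the floor. Among all named genes 32.9% lay apart, and the difference between the classes was not tested.

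The ratio of a liver-type gene to its partner within each array shows whether the pair moved unequally. Of the 11 pairs measured, 4 had both genes above the floor. In those 4 the change of the log2 ratio from control to STYK1 was −0.036 (standard error 0.32) for SLC2A2 against SLC2A1, −0.058 (0.27) for PKLR against PKM, −0.097 (0.43) for PYGL against PYGB, the brain phosphorylase, which gave 4.74 and 5.15 with pcFLAG and 4.76 and 4.97 with STYK1, and 0.062 (0.061) for PC against PKM. The groups overlapped in each of them, and the exact two-sided permutation p was 0.667 to 1, where 2 arrays against 2 cannot go below 0.333. In the 7 other pairs a gene at background stands in the ratio, and the groups did not overlap for 2, PDK2 against PDK1 (−0.34, standard error 0.17) and GYS2 against GYS1 (−0.17, 0.077), each at the smallest exact permutation p of 0.333. Those values follow PDK1 and GYS1, since PDK2 and GYS2 were under the floor on all 4 arrays.

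**Figure D3:**
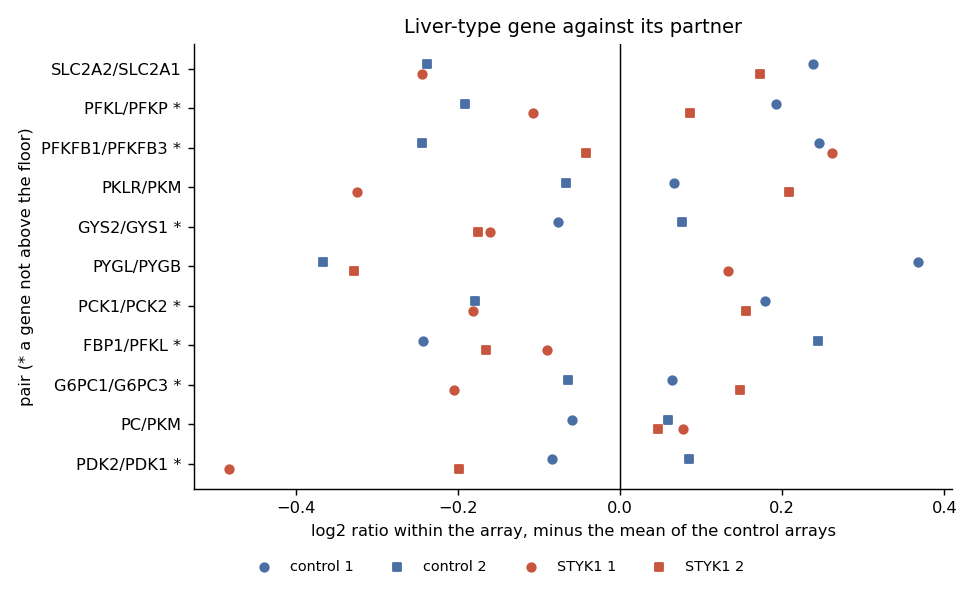
Log2 ratio of the liver-type gene to its partner within each array, minus the mean of the control arrays, for 11 pairs (blue, control; red, STYK1; circles, replicate 1; squares, replicate 2; stars mark pairs with a gene not above the floor). Red and blue points overlap in all pairs but GYS2/GYS1 and PDK2/PDK1.

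Genes of the same pathways outside the list were counted over 6 lists. Of 80 measured genes 0 passed the adjusted threshold (limma), and 4 had an unadjusted p under 0.05, 2 higher and 2 lower, where 3.72% of all named genes did. Which genes had an unadjusted p under 0.05 changed with the array left out. As single arrays were left out, the differences of the 4 ran from −0.49 to −0.28 for PPP1R3C and from −0.41 to −0.27 for GYG2. They ran from 0.33 to 0.63 for FOXO1 and from 0.25 to 0.36 for IRS2. The median of the 80 differences was −0.036. By list, 6 of 19 further genes of glycolysis and sugar entry had a higher mean in the STYK1 arrays, 5 of 8 of gluconeogenesis and 14 of 22 of glycogen metabolism. The counts were 5 of 9 for pyruvate dehydrogenase and the pyruvate carriers, 1 of 6 for the pentose phosphate pathway and 7 of 16 for regulators. The groups did not overlap for 17 of the 80 with the STYK1 arrays higher and for 13 with them lower, against 16.7% and 16.2% of all named genes.

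With 4 of 80 genes beside 3.72% of all named genes, these calls are described singly and are no result about a pathway. The 2 lower ones at an unadjusted p under 0.05 (limma) come from the 22 further glycogen genes, of which 14 were higher and 8 lower. PPP1R3C, a scaffold that brings a phosphatase to glycogen and so favours synthesis, read 1.76 and 1.55 with pcFLAG and 1.27 and 1.26 with STYK1. The groups did not overlap, with a difference of −0.39 (standard error 0.11; limma, unadjusted p = 0.0169, adjusted p = 0.98). GYG2, the liver glycogenin that primes a glycogen particle, read 2.50 and 2.51 with pcFLAG and 2.23 and 2.09 with STYK1, a difference of −0.34 (standard error 0.096; limma, unadjusted p = 0.0174, adjusted p = 0.98). PPP1R3D, a related scaffold, lay the other way at 0.31 (standard error 0.15), with 3 of 4 arrays above the floor, and at 0.16 without STYK1 replicate 1 and 0.19 without control replicate 1.

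The 2 higher ones come from the 16 regulators, of which 7 were higher and 9 lower. FOXO1, the insulin-restrained activator of G6PC1 and PCK1, read 1.76 and 1.79 with pcFLAG and 2.11 and 2.41 with STYK1, a difference of 0.48 (standard error 0.13; limma, unadjusted p = 0.0147, adjusted p = 0.98). The difference was 0.63 without STYK1 replicate 1 and 0.33 without STYK1 replicate 2. IRS2, an insulin receptor substrate that FOXO1 is known to induce, lay near the floor. It read 0.95 and 0.84 with pcFLAG and 1.20 and 1.19 with STYK1. The IRS2 difference was 0.31 (standard error 0.091; limma, unadjusted p = 0.0218, adjusted p = 0.98). G6PC1, whose upstream sequence above holds TGTTTTT at 2 places, was under the floor on all 4 arrays. Whether FOXO1 acted on IRS2 or G6PC1 in these cells was not tested. AKT2, the insulin-responsive kinase of liver, differed by −0.23 near the floor, and by −0.12 without control replicate 1.

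Among further genes around pyruvate, PDHB, a subunit of pyruvate dehydrogenase, read 4.42 and 4.41 with pcFLAG and 4.65 and 4.62 with STYK1, a difference of 0.21 (standard error 0.084; limma, unadjusted p = 0.0545, adjusted p = 0.98). The genes of this paragraph were picked from those whose groups did not overlap. Of all named genes 32.9% met that mark, so the lack of overlap is no result. DLAT, another subunit, differed by 0.097 and PDK4, near the floor, by 0.11, both without overlap. BSG, the chaperone of lactate transporters, read 8.15 and 8.25 with pcFLAG and 8.07 and 7.93 with STYK1, a difference of −0.20 (standard error 0.10) without overlap, −0.12 without STYK1 replicate 2. The glycerol 3-phosphate dehydrogenases GPD1 and GPD2 differed by −0.17 and −0.12, the former near the floor. The muscle forms ENO3 and PGAM2, at 0.19 and −0.17, also lay near the floor.

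**Figure D4:**
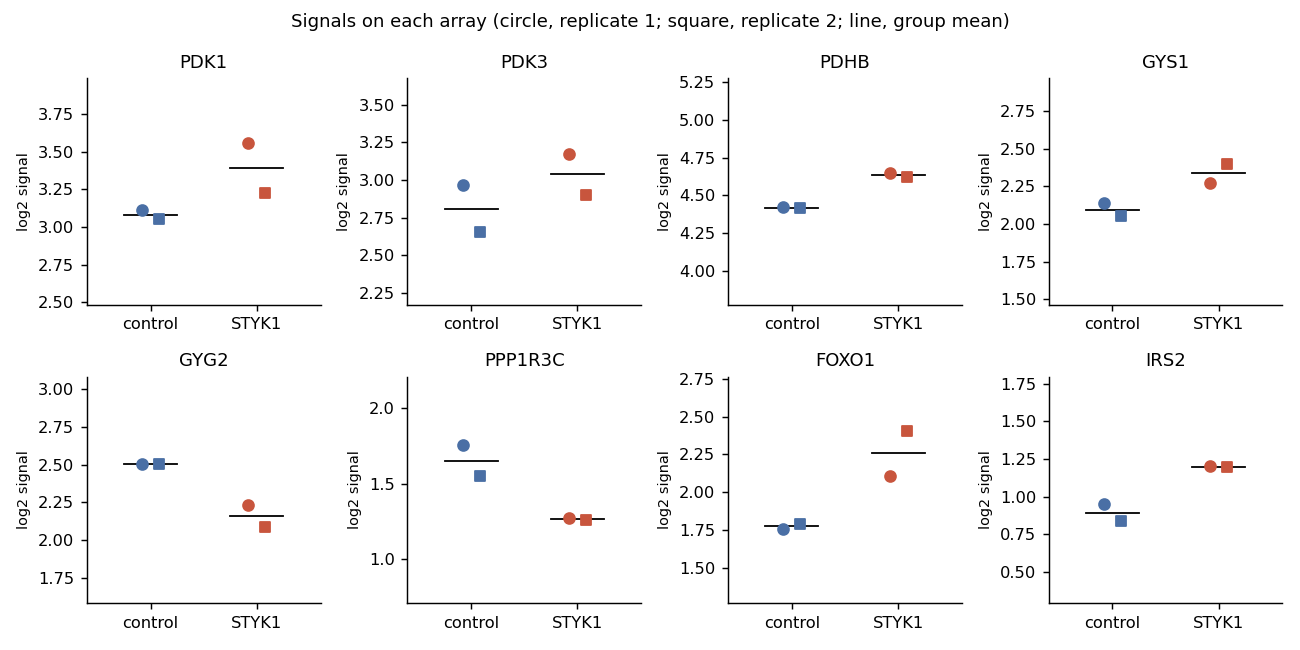
Log2 signal on each array for 8 genes around pyruvate, glycogen and insulin signalling (blue, control; red, STYK1; circles, replicate 1; squares, replicate 2; lines, group means); each panel spans 1.5 log2 units. Most of these genes were picked by a rule that requires groups without overlap, the others after their values were seen. That the groups overlap only for PDK3 follows from this choice, and 32.9% of all named genes lay apart. STYK1 replicate 1 lies highest for PDK1 and PDK3, and by a small margin for PDHB and IRS2.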

How the data were processed

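Per the labels' protocols, biotin-labelled RNA of both groups went onto whole-transcript arrays from Affymetrix. The deposited values are log2 signals per probe set, in 1 table. The submitters' processing notes name Transcriptome Analysis Console; how it normalized and summarized is not given in the sources used here. Base 2 was inferred from the values. No detection calls or scan dates were used here.

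Of 53617 probe sets 23871 had 1 gene symbol, 1842 several and 27904 none here; 90 symbols were updated by Entrez ID through RefSeq (GRCh38.p14). The members, lists, floor and pairs were chosen with earlier results of these data known. All probe sets entered a single two-sided comparison in limma 3.58.1 under R 4.3.3 (lmFit, then eBayes) with Benjamini-Hochberg adjustment, and the fit was tested on simulated data. A gene's standard error rests on 2 residual and 2.71 prior degrees of freedom, and the number of arrays limits the precision. Values on every array are given for members whose groups do not overlap, differ by 0.25 or more and have a group above the floor, and for isoform pairs, some under the floor by their range; from each list of other genes, up to 3 by largest difference without overlap. Other genes printed beside them were chosen after their values were seen. Alternatives were a replicate block, leaving out each array, quantile normalization, median centring, eBayes with trend and robust, a filter at the floor and the mean of a gene's probe sets.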

Additional observations from a re-analysis of the deposited data

How the results depend on the processing

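Among the 42 glucose metabolism genes 0 passed the adjusted threshold under any of the 10 alternatives, of which the filter at the floor tests 27 of them. Dropping single arrays leaves a lone array whose spread is taken from the other group. It gave a median difference of 0.0085 to 0.045 and 4 to 8 isoform pairs without overlap (fewer arrays overlap less by construction). Nothing in the labels says that equal replicate numbers mark a shared culture or day, and deviations of same-numbered arrays correlated at −0.044. With the replicate number as a block, 0 probe sets, 0 members and 0 other genes passed the adjusted threshold, 3 pairs lay apart, and the median stayed at 0.023; the block leaves 1 residual degree of freedom. Quantile normalization moved the median to 0.0084, and the cause was not tested. A variance trend left 2 other pathway genes at an unadjusted p under 0.05, PPP1R3C and FOXO1. Among genes above the floor 0 pairs lay apart, since fewer pairs remain. The sign of the difference held for 18 of the 42 genes as each array was left out, and for 38 under quantile normalization and median centring; the other alternatives leave a gene's difference as it is or leave the gene out.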

Other observations

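The pentose phosphate pathway branches off glycolysis at glucose 6-phosphate to make NADPH and ribose. Of its 6 measured genes 5 had a lower mean in the STYK1 arrays and 1 a higher one, where 50.8% of all named genes were higher. The median difference was −0.14, and 0.0022 over all named genes. The groups did not overlap for 2 of the 6, where 32.9% of all named genes lay apart. The largest difference, −0.265 for PGLS, came with overlap and with STYK1 replicate 2 at 2.92. All 6 lay above the floor, 0 passed the adjusted threshold and 0 had an unadjusted p under 0.05 (limma). TALDO1, the transaldolase that links the pathway back to glycolysis, read 2.54 and 2.59 with pcFLAG and 2.35 and 2.47 with STYK1, a difference of −0.16 (standard error 0.094) without overlap, −0.092 without STYK1 replicate 1. RPIA, which makes ribose 5-phosphate, read 3.57 and 3.42 against 3.39 and 3.34, a difference of −0.12 (standard error 0.098) without overlap, −0.045 without control replicate 1. Averaged over the 6 genes, deviations were 0.10 and 0.022 for pcFLAG and 0.025 and −0.15 for STYK1 replicates 1 and 2, with overlap and STYK1 replicate 2 lowest.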
